A study of Mus musculus with 2 samples.

Results

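The 9 genes described here carry the Sonic hedgehog signal from the secreted ligand to the transcription factors of the nucleus: Shh, Ptch1, Smo, Gli1, Gli2, Gli3, Hhip, Boc and Cdon. They were chosen by name, as the rows of the deposited gene tables whose identifier maps to these symbols in the mouse GENCODE annotation, and they are 9 of 43346 genes. All 9 were found in both tables. The series holds total RNA-seq of midbrain tissue dissected at embryonic day 11.5 from mouse embryos of strain B6NCrl, and its labels give no treatment, mutation or other condition.

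There were 2 libraries of 1 group. Replicate 1 came from 109 pooled embryos and replicate 2 from 88, both pools of mixed sex, so each value is an average over many embryos. The RNA was taken from whole midbrain and holds every cell type of the tissue, and in such RNA fewer cells of a type and less RNA per cell cannot be told apart.

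Shh protein is made by the notochord and the floor plate, the ventral midline of the neural tube, and spreads dorsally as a graded signal that sets the identity of ventral progenitors. Its receptor Ptch1 holds the membrane protein Smo inactive until Shh binds. Active Smo then turns the Gli factors from repressors into activators, with Gli3 the main repressor, Gli2 the main activator, and Gli1 an activator that is itself induced. Boc and Cdon, with Gas1, bind Shh and help it reach Ptch1, and Hhip binds Shh and takes it away.

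Because several of these proteins belong to families, the sequences shared between their mRNAs are shown first: a read that lies wholly within one cannot be assigned by its sequence alone. Among all pairs of the 9 genes, the longest identical run was 31 bases, between Boc and Cdon. The leading transcript of each gene was compared, except for Boc. The run is in capitals in these 48-base coding windows from the GENCODE M21 transcripts, of which 42 bases were identical. For Boc the transcript used was Boc-201, a minor one with 3.93% and 3.43% of the gene's TPM in replicates 1 and 2, since M21 holds no entry for the leading one.

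Boc: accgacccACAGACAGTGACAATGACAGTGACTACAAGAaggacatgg
Cdon: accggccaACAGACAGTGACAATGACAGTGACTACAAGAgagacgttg

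The Gli genes followed, with 25 bases between Gli2 and Gli3 and 23 bases between Gli1 and Gli2. These lie in the coding sequence, 36 and 43 of the 48 bases were identical, and capitals again mark the shared run. The window pair of Gli2 and Gli3 comes first.

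Gli2: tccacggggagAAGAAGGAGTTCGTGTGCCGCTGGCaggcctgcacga
Gli3: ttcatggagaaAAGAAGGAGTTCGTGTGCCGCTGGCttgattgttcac

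The window pair of Gli1 and Gli2 was this.

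Gli1: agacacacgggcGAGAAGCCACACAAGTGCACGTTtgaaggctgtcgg
Gli2: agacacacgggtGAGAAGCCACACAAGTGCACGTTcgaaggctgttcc

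Gli1 and Gli3 shared 14 bases, and Ptch1 and Gli2, which are not related, shared 16. No source used here gives the read length. The counts of Smo, Ptch1, Boc, Cdon, Gli1 and Gli2 were whole numbers. Shh (271.04 and 458.45 expected counts in replicates 1 and 2), Hhip (456.01 and 429.93) and Gli3 (4566.1 and 6434.3) had counts with decimals, and each of these 3 genes shares exon bases with a gene on the opposite strand, as Gli1 also does.

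**Figure D1:**
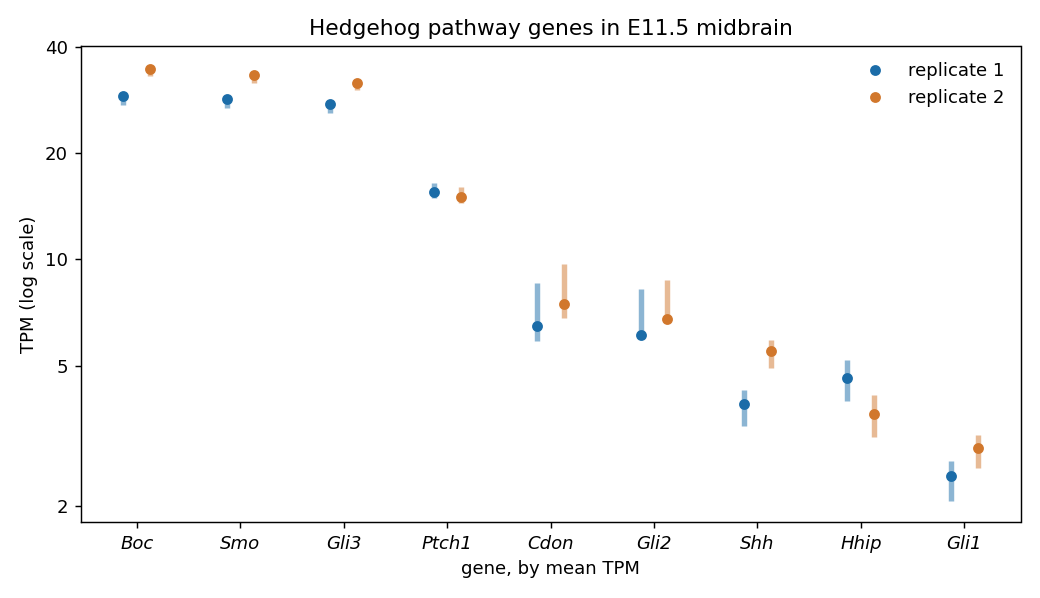
Level of each of the 9 genes in replicate 1 (left point of each pair) and replicate 2 (right point), in TPM on a log axis; bars are the deposited intervals. Boc, Smo and Gli3 lie together near 30 TPM, Ptch1 lies near 15 TPM, and Cdon, Gli2, Shh, Hhip and Gli1 lie under 8 TPM.

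All 9 genes were detected, at 1 TPM or more in both libraries, against 58.2% of protein-coding genes. TPM, the share of all transcripts in a library that a gene's transcripts make up, is scaled by transcript length and so allows genes to be compared within a library. In order of the mean level they were Boc, Smo, Gli3, Ptch1, Cdon, Gli2, Shh, Hhip and Gli1. The median of the 9 means was 6.985 TPM, against a median of 16.36 TPM over all 13895 detected genes.

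A pair of genes in a library was called apart where their deposited TPM intervals did not overlap, and this had to hold the same way in both libraries. Of the 36 pairs of the 9 genes, 30 were apart, and of all pairs of detected genes 88.8% were. The 6 pairs that were not apart were Boc and Smo, Boc and Gli3, Smo and Gli3, Cdon and Gli2, Shh and Hhip, and Hhip and Gli1. Boc, Smo and Gli3 thus stood above Ptch1, and Ptch1 above the other 5. Within these 5, Cdon and Gli2 were each above Shh, Hhip and Gli1, and Shh was above Gli1. The neighbours Cdon and Gli2, Shh and Hhip, and Hhip and Gli1 could not be ordered. Each interval covers the assignment and counting of reads in 1 amplified library and no source used here gives its level.

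**Figure D2:**
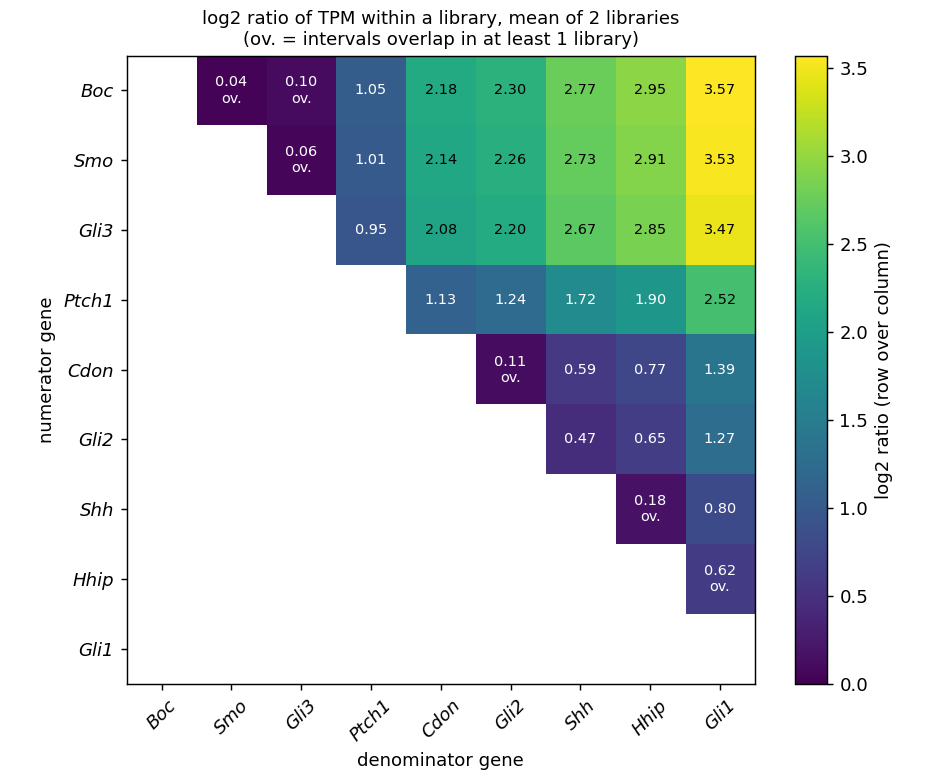
Mean over both libraries of the log2 ratio of TPM within a library, gene of the row over gene of the column, with "ov." where the intervals overlapped in at least 1 library. The largest value is Boc over Gli1 at 3.57, and the 3 pairs among Boc, Smo and Gli3 are at 0.10 or less.

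Shh itself (mm10, as all gene positions here: chromosome 5, 28456815 to 28467256, minus strand) was among the lowest of the 9. It had 3.90 TPM in replicate 1 and 5.52 TPM in replicate 2, at percentiles 19.65 and 25.58 of the detected genes. The intervals, 3.365 to 4.2827 TPM and 4.9381 to 5.9273 TPM, did not overlap. Shh was the main ligand of its family, with 92.4% and 90.8% of the summed TPM of Shh, Ihh and Dhh. Dhh had 18 and 28 counts (0.30 and 0.39 TPM), which put Shh 13.0-fold and 14.2-fold above it. Ihh had 1 and 13 counts (0.02 and 0.17 TPM).

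The exons of Shh overlap those of 9530036O11Rik by 446 bases and of Gm26894 by 361 bases, both on the opposite strand. Whether counting used strand is not given, so reads there are uncertain. These genes had 0.03 and 0.09 TPM, and 0.54 and 0.50 TPM. Of the 8 genes for hedgehog ligands and their release, 6 were detected, all but Ihh and Dhh, against 58.2% of protein-coding genes. Scube1, which helps carry secreted Shh, had 14.5 and 18.2 TPM. Disp1, which releases lipid-bearing Shh from the cell, had 7.00 and 6.64 TPM. Hhat, which attaches palmitate to Shh, had 5.57 and 8.34 TPM.

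Foxa2, a floor plate factor that lies both upstream and downstream of Shh, had 11.5 and 13.7 TPM. It stood 2.96-fold and 2.49-fold above Shh in replicates 1 and 2, with intervals apart in both. All 7 floor plate markers were detected, against 58.2% of protein-coding genes. Their summed levels were 97.7 and 102.6 TPM, of which Spon1 alone had 47.97 and 47.79 TPM. Of the notochord markers, T had 1.00 and 0.71 TPM and Noto had 0 counts in both libraries, a count that allows up to 0.0772 CPM in replicate 1 and 0.0653 CPM in replicate 2 (3 counts, counting error only).

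Ptch1 (chromosome 13, 63508328 to 63573598, minus strand), the receptor and a target of its own pathway, had 15.5 and 15.0 TPM, a mean of 15.25 ± 0.35 TPM (SD, n = 2). It was the steadiest of the 9 between the libraries. Smo (chromosome 6, 29735503 to 29761365, plus strand), the transducer that Ptch1 inhibits, had 28.5 and 33.3 TPM. Ptch1 was at 0.544 and 0.451 of the Smo level, with intervals apart in both libraries. It was 3.97-fold and 2.72-fold above Shh. As counts per base of annotated exons the mean log2 ratio of Ptch1 over Shh was 0.83, against 1.72 on TPM.

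Most Ptch1 transcript was assigned to Ptch1-202, a protein-coding transcript that held 81.3% and 82.3% of the gene's TPM. Ptch1-204, annotated as a target of nonsense-mediated decay, held 11.8% and 6.79%, and Ptch1-201 held 6.58% and 9.53%. The RefSeq promoter window of Ptch1 (GRCm38.p6, chr13:63565736-63565985, minus strand) lies at the start of Ptch1-201, and the leading Ptch1-202 starts 1200 bases downstream of it. It is shown because Ptch1 is a known Gli target, with CpG in capitals.

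Ptch1: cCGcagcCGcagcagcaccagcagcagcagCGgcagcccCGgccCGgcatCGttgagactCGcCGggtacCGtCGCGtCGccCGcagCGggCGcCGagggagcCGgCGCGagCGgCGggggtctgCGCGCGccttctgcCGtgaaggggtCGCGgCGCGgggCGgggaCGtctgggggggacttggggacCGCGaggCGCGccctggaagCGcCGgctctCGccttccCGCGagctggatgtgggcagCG

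These 250 bases before the start had 78.4% GC and 41 CpG, more CpG than 98.9% of the 32851 windows of the same length, whose median was 6. The window of Hhip, the other target among the genes with a window (GRCm38.p6, chr8:80058009-80058258, minus strand), lies 2 bases from the start of its leading transcript Hhip-201.

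Hhip: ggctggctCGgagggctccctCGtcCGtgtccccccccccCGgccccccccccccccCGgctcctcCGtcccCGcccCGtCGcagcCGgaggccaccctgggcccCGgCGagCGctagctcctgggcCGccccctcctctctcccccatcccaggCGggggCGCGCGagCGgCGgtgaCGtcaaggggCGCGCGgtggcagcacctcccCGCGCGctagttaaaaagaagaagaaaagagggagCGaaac

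The Hhip window had 76.0% GC and 28 CpG, more than 92.4% of windows. The Gli consensus site GACCACCCA or its reverse complement TGGGTGGTC was in 0 of the windows of the 6 genes that had one (Ptch1, Smo, Gli2, Gli3, Hhip and Cdon), against 0.225% of all windows. That says only that these letters are not in these windows.

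Boc (chromosome 16, 44485049 to 44558897, minus strand), a co-receptor of the immunoglobulin superfamily, was the highest of the 9 by its mean, with 29.0 and 34.6 TPM. Its relative Cdon (chromosome 9, 35421128 to 35507652, plus strand) had 6.49 and 7.48 TPM. Boc was 4.47-fold and 4.63-fold above Cdon, with intervals apart in both libraries. As counts per base of annotated exons the mean log2 ratio of Cdon over Boc was -2.89, against -2.18 on TPM. Gas1, the third Shh co-receptor and a membrane-anchored protein, was above both with 66.6 and 79.4 TPM, which was 2.30-fold above Boc in each library and 10.3-fold and 10.6-fold above Cdon. The mean log2 ratio of Gas1 over Cdon was 4.08 per base of annotated exons, against 3.38 on TPM. Of the summed TPM of the 3 co-receptors, Gas1 made up 65.2% and 65.4%, Boc 28.4% and 28.5%, and Cdon 6.36% and 6.16%. These shares differed by less than 0.3 percentage points between the libraries.

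The Boc level rested on 1 transcript, which held 96.1% and 96.6% of it and which has no entry in the later annotation used for names. Cdon had the smallest leading share of the 9 genes. Cdon-202, the 7464-base transcript, held 48.4% and 37.4%, and Cdon-206, of 2222 bases, held 36.2% and 30.8%. Cdon-205 held 11.4% and 17.2%, and Cdon-201 held 4.01% and 14.6%. In replicate 1 Cdon-205 and Cdon-201 rested on 10.97 and 49.58 counts, with lower interval bounds of 1.485e-05 and 0.000163 TPM. The mean leading share of Cdon was 42.9%, and 35.8% on posterior mean TPM. The Cdon TPM intervals, 5.8609 to 8.6026 and 6.8496 to 9.73, were wider, relative to the level, than those of Boc.

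Hhip (chromosome 8, 79965851 to 80058006, minus strand), the decoy receptor induced by the pathway, had 4.61 and 3.64 TPM. Hhip and Shh exchanged places between the libraries: Shh was at a log2 ratio of -0.24 to Hhip in replicate 1, with overlapping intervals, and of 0.60 in replicate 2, with intervals apart. Ptch1 was 3.36-fold and 4.12-fold above Hhip. Hhip-201 held 78.5% of the gene in both libraries (78.53% and 78.45%), and Hhip-202, annotated as a processed transcript, held 21.5% and 21.6%. Gm27820, a 175-base overlap on the opposite strand, had 4.99 and 1.07 counts. The deposited length of Hhip-201 was 4582 bases, against 9074 in annotation M21, so the deposited model is the shorter one.

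**Figure D3:**
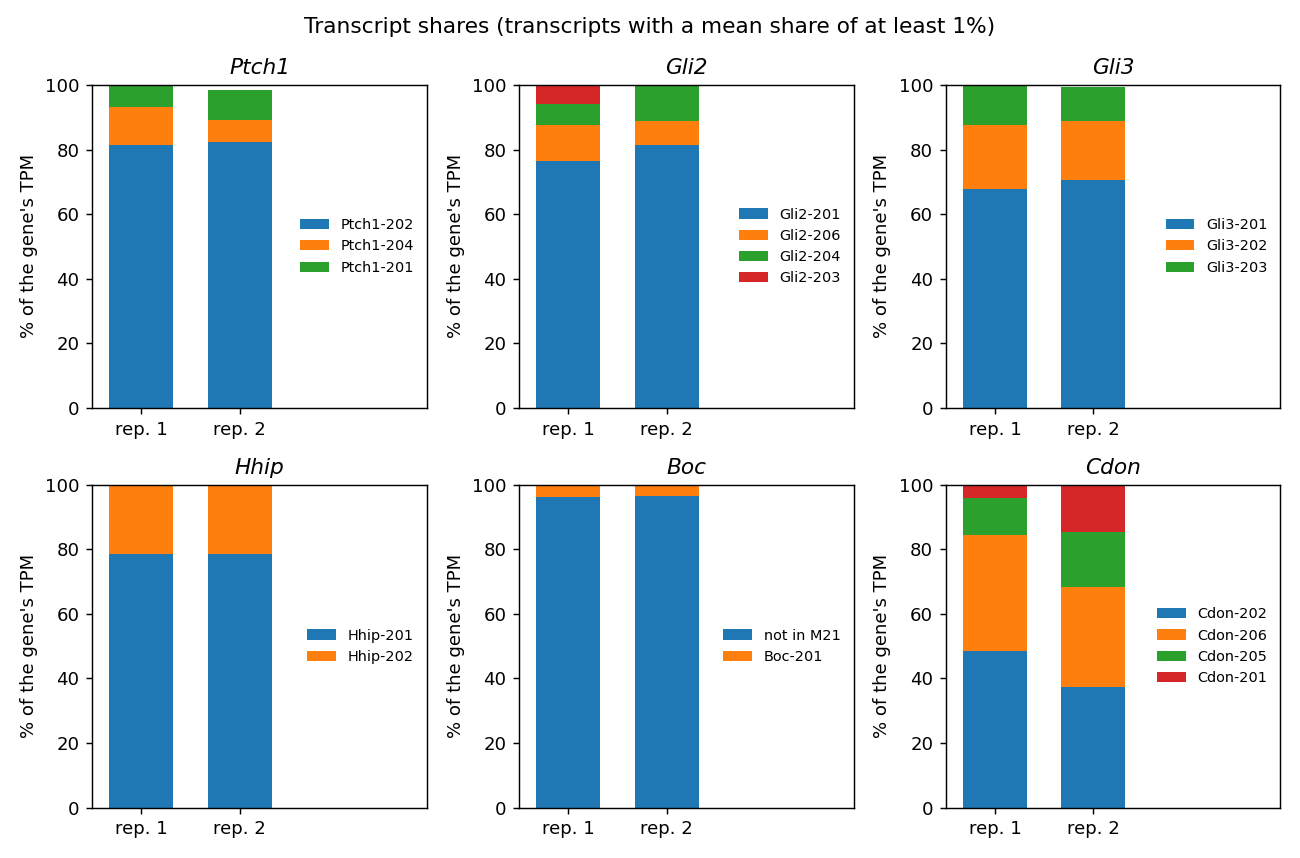
Share of each gene's TPM, in percent, assigned to its transcripts in replicate 1 (left bar) and replicate 2 (right bar), for the 6 genes with more than 1 transcript and for transcripts with a mean share of at least 1%. Boc rests on 1 transcript at 96.1% and 96.6%, and Cdon is split over 4.

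The Gli factors were unequal in the same way in both libraries. Gli3 (chromosome 13, 15463235 to 15730026, plus strand) had 27.6 and 31.7 TPM, Gli2 (chromosome 1, 118834132 to 119053619, minus strand) had 6.12 and 6.78 TPM, and Gli1 (chromosome 10, 127329882 to 127341974, minus strand) had 2.43 and 2.92 TPM. Gli3 thus made up 76.3% and 76.6% of the Gli TPM, Gli2 17.0% and 16.4%, and Gli1 6.73% and 7.06%. All 3 pairs were apart in both libraries.

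Gli3 was 11.3-fold and 10.9-fold above Gli1, a mean log2 ratio of 3.47 ± 0.05 (SD, n = 2). It was 4.50-fold and 4.67-fold above Gli2. Gli2 was 2.52-fold and 2.32-fold above Gli1. Gli1, which is read as a response of cells to Shh, was at 0.623 and 0.529 of the level of Shh. By TPM it was the lowest of the 9 in both libraries, at percentiles 11.92 and 14.81 of the detected genes. In replicate 2 its interval overlapped that of Hhip. With 232 and 334 counts, Gli1 also had the fewest reads of the 9.

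Gli3-201, of 8170 bases, held 67.7% and 70.6% of Gli3. Gli3-203, annotated as a retained intron, held 12.5% and 10.6%. Gli2-201 held 76.4% and 81.5% of Gli2. The mean leading share of Gli2 was 78.9%, and 66.3% on posterior mean TPM. Gli1, Shh and Smo had 1 transcript each in the deposited tables. Gli1 exons overlap those of Arhgap9 by 62 bases on the opposite strand, and Arhgap9 had 0.83 and 1.02 TPM. They also overlap Gm47200 by 265 bases on the opposite strand, whose level was not analysed here. Gli3 exons overlap Gm6556 by 188 bases on the opposite strand, and Gm6556 had 1.33 and 1.36 TPM.

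The list for transduction from Smo to Gli holds the Gli factors Gli1, Gli2 and Gli3 themselves. Of its 22 genes, 22 were detected, against 58.2% of protein-coding genes. Their median was 16.2 TPM, against 16.36 TPM over all detected genes. Sufu, which binds Gli proteins and restrains them, had 25.0 and 29.0 TPM, at 0.908 and 0.915 of the Gli3 level, and its intervals overlapped those of Gli3. Kif7, the kinesin that organises the tip of the primary cilium, had 2.15 and 3.59 TPM. Prkaca, a catalytic subunit of the protein kinase A that marks Gli proteins for processing, had 104.9 and 119.3 TPM. Spop, an adaptor for Gli degradation, had 119.8 and 98.5 TPM. Gpr161, a ciliary receptor that restrains the pathway, was the lowest of the list at 1.92 and 1.94 TPM. Over the whole pathway, 36 of 38 genes were detected, with a median of 10.7 TPM.

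**Figure D4:**
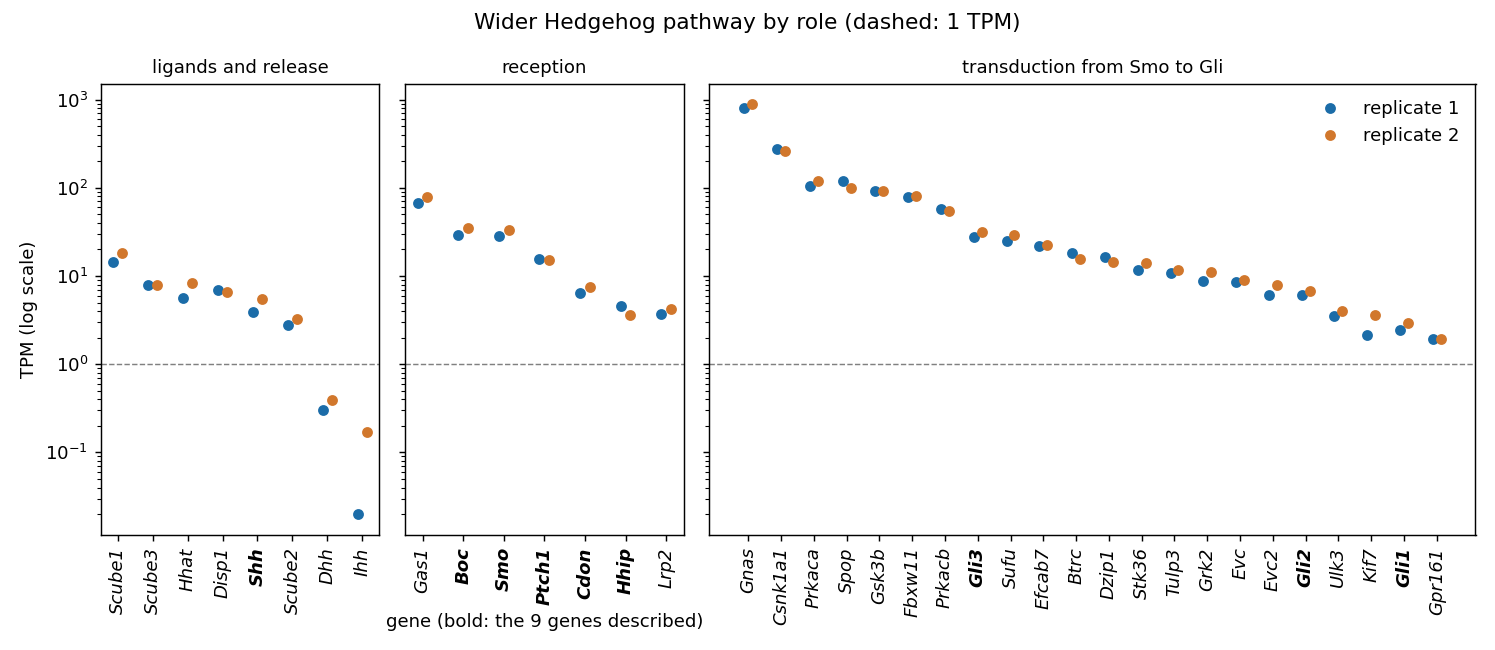
TPM on a log axis of 37 pathway genes by role, replicate 1 left and replicate 2 right of each pair, with the 9 genes in bold and the dashed line at 1 TPM. Dhh and Ihh are the genes under the line, and Gnas is the highest at 807.4 and 889.0 TPM.

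Genes that the pathway is known to raise were mostly detected. Of 16 listed, 14 were at 1 TPM or more in both libraries, against 58.2% of protein-coding genes. The median of the 16 was 5.81 TPM, against 16.36 TPM over all detected genes. From the 9 genes, 3 (Ptch1, Hhip and Gli1) belong to this list. Nkx6-2 had 36.5 and 41.7 TPM, Nkx2-2 had 12.9 and 11.3 TPM, and Olig2 had 5.91 and 5.45 TPM; these are transcription factors of ventral progenitors. Foxf1 (0.13 and 0.16 TPM) and Foxl1 (0.34 and 0.61 TPM), targets known from mesenchyme, were under 1 TPM, whereas the mesenchymal targets Foxf2 (3.86 and 4.34 TPM) and Foxc2 (5.42 and 5.36 TPM) were detected. All 7 listed genes that the pathway is known to lower were detected, against 58.2% of protein-coding genes. Their median was 30.5 TPM, against 16.36 TPM over all detected genes, and Boc, Cdon and Gli3 belong to this list. Beside them, Pax3, a factor of the dorsal neural tube, had 31.7 and 29.3 TPM. Pax7 was the lowest of the 7, at 2.58 and 2.38 TPM.

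The libraries were then set against each other. Of the 9 genes, 4 had intervals apart between the libraries, Boc, Smo, Gli3 and Shh, and all 4 were lower in replicate 1 than in replicate 2. None was higher. Among all detected genes, 11.1% were lower and 11.4% higher in replicate 1 by the same measure, and among genes with a mean TPM within the range of the 9, 8.81% were lower. The log2 ratio of replicate 1 over replicate 2 was -0.50 for Shh, -0.25 for Boc, -0.22 for Smo and -0.20 for Gli3. It was -0.27 for Gli1, -0.20 for Cdon, -0.15 for Gli2, 0.05 for Ptch1 and 0.34 for Hhip, with overlapping intervals. The median was -0.20 for the 9 genes and 0.00 for all detected genes to 2 decimals, and 7 of the 9 were below 0.

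None of these differences reached 2-fold. In an exact binomial test of the counts, which compares these libraries and not conditions, 2.85% of 17148 genes had an adjusted p under the threshold of 0.05 and a 2-fold difference, and 0 of the 9 genes did. Without the 2-fold minimum 34.9% of these genes and 7 of the 9 passed this exact test, with adjusted p = 3.39e-05 for Shh and 0.00326 for Hhip, which moved the other way; Ptch1 (0.244) and Gli1 (0.07) did not. Over 2 libraries an exact sign-flip test cannot go below p = 0.5.

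Some other pathway genes also differed between the libraries, in both directions. Of the 29 pathway genes beyond the 9, 27 were detected. By their intervals 8 were lower in replicate 1, among them Gas1, Hhat, Scube1 and Kif7. The 4 that were higher were Spop, Btrc, Dzip1 and Csnk1a1. Over all detected genes 11.1% were lower and 11.4% higher. The floor plate markers Foxa2, Foxa1 and Lmx1a were lower in replicate 1 too, at log2 ratios of -0.25, -0.65 and -0.20, while Spon1 had 47.97 and 47.79 TPM. Of the 8 mesenchyme markers, summed at 722.2 and 688.4 TPM, 3 were higher and 1 was lower in replicate 1. The part of floor plate or mesenchyme cells in the difference was not tested. After a trend over GC content and transcript length was subtracted, the median of the 8 genes with a sequence for their leading transcript was -0.14, against -0.20 before; Shh was then at -0.48, Gli3 at -0.22 and Smo at -0.12. Boc had no such sequence.

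**Figure D5:**
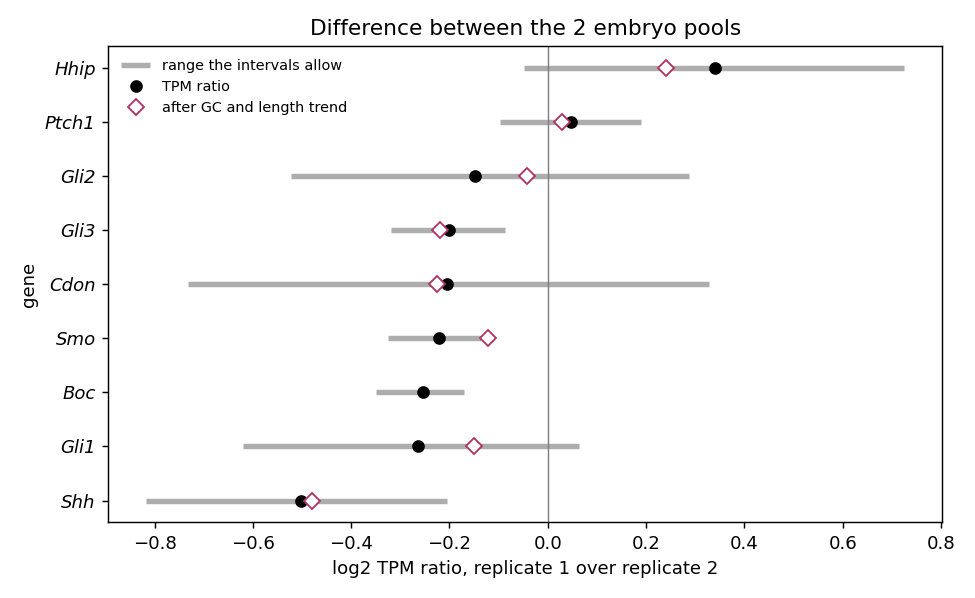
Log2 TPM ratio of replicate 1 over replicate 2 for each gene (filled points), the range that the 2 deposited intervals allow (bars) and the ratio after a GC and length trend was subtracted (open diamonds, not for Boc). Shh lies lowest at -0.50 and Hhip highest at 0.34, and the bars of Shh, Boc, Smo and Gli3 do not reach 0.

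All 5 markers listed for the midbrain were detected, against 58.2% of protein-coding genes. Their median level was below that of the forebrain markers. Otx2, which the forebrain also expresses, had 169.4 and 171.3 TPM, En1 4.94 and 6.29 TPM, Pax5 3.59 and 2.40 TPM, En2 1.80 and 2.21 TPM and Lmx1b 1.55 and 1.66 TPM, with a median of 2.995 TPM. Pax5 set this median, and its TPM lay below its own deposited interval in both libraries (3.9731 to 6.8665 and 2.8724 to 5.0665 TPM). Of 4 forebrain markers 3 were detected, led by Lhx2 at 42.4 and 47.4 TPM, and the median was 7.98 TPM. Of 4 hindbrain markers 1 was detected, Gbx2 at 7.38 and 7.43 TPM, and Hoxa2, Egr2 and Hoxb1 were at 0.21 TPM or less. The libraries held 38884247 and 45975100 counts on genes, and spike-in RNAs of known amount took 6.89% and 6.66% of all counts.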

How the data were processed

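The deposited gene and transcript tables of both libraries were used. Per the file headers, the authors gave an expected count, TPM (maximum likelihood and posterior mean) and FPKM for each row, and interval bounds of TPM, which were treated as a signal, and whose level no source states. The authors' transcript tables state as a percent how much of a gene's abundance each transcript takes. Per the submitters' processing notes the assembly was mm10 and the annotation release M4. Aligner, quantifier and strand use were not given in the sources used here. Per the labels, the input per library was 10 ng of RNA, size-selected above 200 nt, with added spike-ins, and the general protocol cited is Smart-seq. Since cDNA is amplified there, reads do not stand for separate molecules, and intervals and limits cover counting error only.

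TPM totals include the spike-in rows. The 9 genes and all lists were chosen with earlier results of these data known. The text names the 9 genes, genes of the lists and pairs, and genes whose exons overlap theirs; 1 listed gene is counted in the lists but not reported here. Symbols, coordinates (1-based) and transcript sequences came from GENCODE M21 on the same assembly, by identifier without version, with 42462 of 43346 genes matched. Of the 34 transcripts of the 9 genes, 25 had the M21 length. Promoter windows are RefSeq's for GRCm38.p6. Rows that are no genes, 96 spike-ins and 26248 numeric identifiers among them, stayed out of tests.

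Nothing beyond separate pools is stated of the replicates. Genes were compared within a library by their intervals. Between libraries, replicate 1 over replicate 2, a two-sided exact binomial test ran on expected counts rounded to whole numbers, for the 17148 genes that had 20 or more summed counts, with edgeR 4.0.16 TMM scaling and Benjamini-Hochberg adjustment over all of them. It was tested on simulated counts that held counting error only, with no variation between pools or from amplification. That run cannot show how the test behaves under such variation. Alternatives were DESeq2 1.42.0 size factors, spike-in scaling, posterior mean TPM, log2(TPM + 1), other detection limits and leaving out each replicate. Protein-coding transcripts alone and counts per annotated exon base were also used. The protein-coding set kept transcripts without an M21 entry, the leading one of Boc among them. For the exon measure, deposited counts, made with release M4, were divided by the exon bases of M21. Other tools were R 4.3.3, Python 3.11.15 with scipy 1.17.1, numpy 2.4.6 and pandas 2.3.3, and, for figures, matplotlib 3.10.9.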

Additional observations from a re-analysis of the deposited data

How the results depend on the processing

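The alternative measures of level changed sizes more than directions. The log2 ratio of Gli3 over Gli1, 3.47 as reported, was 3.06 on log2(TPM + 1), 3.29 with protein-coding transcripts alone and 3.34 with counts per base of annotated exons. Gli3 over Gli2, 2.20 as reported, was 1.97 with the posterior mean TPM, 2.04 on log2(TPM + 1) and 1.93 per exon base. Cdon over Boc, -2.18 as reported, was -2.02, -2.04 and -2.89 in the same order, and Ptch1 over Smo, -1.01 as reported, was -1.43 per exon base. Of the 84 alternative values of pair ratios, 1 reversed: Sufu over Gli3, -0.13 as reported, was 0.02 (0.0226) with protein-coding transcripts alone. The exon bases were those of M21, whereas the deposited counts rest on release M4. The cause of these changes was not tested.

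The count of genes that differed between the libraries, 4 by intervals, depended on the test. It was 0 in the exact binomial test with a 2-fold minimum under TMM, spike-in or DESeq2 scaling. Without that minimum it was 7 with TMM, 8 with spike-in and 7 with DESeq2 scaling. Pairs whose TPM stood 1.5-fold apart in both libraries numbered 26, against the 30 apart by intervals, and 22 stood 2-fold apart. Without replicate 1 the count by intervals was 32, and without replicate 2 it was 31. All 9 genes stayed detected under the alternatives run. After the data were seen, the GC and length trend was added; it left the median of 8 genes at -0.14, against -0.20 before it. Ratios of Shh to Ihh and Dhh, which lie under 1 TPM, were not recomputed. No paired analysis was possible because there is 1 group. Depth limits Gli1 and Shh most, with 232 and 271.04 counts in replicate 1.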
